A study of Mus musculus with 59 samples.

Results

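The transcripts described here are those of 10 genes of the acetylcholine receptor and the neuromuscular junction, taken by symbol from the 47643 gene symbols of the deposited mouse muscle expression table. They are the receptor subunit genes Chrna1, Chrnb1, Chrnd, Chrne and Chrng, the receptor tyrosine kinase gene Musk, the scaffold gene Rapsn, the agrin receptor gene Lrp4, the cell adhesion gene Ncam1 and the transcription factor gene Runx1. Each symbol had a single row. Expression was followed across 59 libraries of 3 muscles: diaphragm, tibialis anterior (TA) and soleus.

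All mice were female NCI Ath/nude animals, an athymic strain that lacks T cells, and were 4 months old. Every mouse carried a human melanoma xenograft, either a cachectic one, which causes muscle wasting, or a non-cachectic one, so that no group was free of tumor. Each condition rested on 1 patient-derived tumor stock, and the effect of cachexia and that of the particular tumor cannot be told apart. The diaphragm was sampled in 4 groups, with a cachectic (n = 10) or non-cachectic (n = 9) melanoma and mock treatment (labelled as without rFibcd1), and with a cachectic (n = 10) or non-cachectic (n = 10) melanoma and treatment with rFibcd1, a recombinant form of the secreted muscle protein Fibcd1, which was tested for its effect on fiber wasting. TA and soleus were sampled from mice with a cachectic (n = 5) or non-cachectic (n = 5) melanoma whose labels name no rFibcd1.

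At the neuromuscular junction, acetylcholine released by the motor axon opens a pentameric receptor built from alpha, beta and delta subunits together with either the gamma subunit of fetal muscle or the epsilon subunit of adult muscle. Nerve-derived agrin binds Lrp4, which activates the kinase Musk, and rapsyn, the product of Rapsn, then anchors the receptors beneath the nerve terminal. In innervated muscle these genes are transcribed mainly in the few nuclei under the synapse, whereas loss of nerve activity is known to raise Chrna1, Chrnd, Chrng, Musk, Ncam1 and Runx1 along the whole fiber.

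Values are in TPM, a unit of relative transcript abundance scaled for gene length and for the total of the library, so that levels of different genes can be set side by side. Sequencing depth cannot be read from TPM, and the libraries held between 16436 and 19456 genes above 0. The muscles matched their labels in fiber type. Myh4, the fast type 2B myosin, lay between 7593 and 14540 TPM in TA, and Myh7, the slow myosin, between 4288 and 7886 TPM in soleus. The columns of the table carry numbers that are not the replicate numbers of the labels, and libraries are named here by those column numbers. In soleus, 1 cachectic library (number 7) held 4989 TPM of Myh4, whereas the other cachectic soleus libraries held at most 69.8 TPM. In TA, 1 cachectic library (number 8) had a mitochondrial share of 25.1% of TPM, whereas the other cachectic TA libraries lay between 38.9% and 45.6%. Mitochondrial transcripts took between 41.9% and 51.9% of TPM in the non-cachectic and between 32.9% and 41.6% in the cachectic mock diaphragm, between 47.3% and 51.7% and between 25.1% and 45.6% in TA, and between 38.96% and 44.0% and between 24.1% and 34.6% in soleus. In the rFibcd1 diaphragm they took between 39.3% and 49.0% in the non-cachectic and between 29.8% and 46.4% in the cachectic group, which overlapped. TPM of the other genes can rise when the mitochondrial share falls. Each difference was therefore computed a second time after median-ratio scaling, which centers each library on the median ratio of its genes to those of the other libraries.

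The genes lie on 6 mouse chromosomes (GRCm38, GENCODE M21 annotation). Chrnd (chr1:87190607-87200070) and Chrng (chr1:87204657-87212694) are neighbors on the plus strand, separated by 4586 bases. Chrna1 (chr2:73563215-73580338, minus strand), Rapsn (chr2:91035620-91045729, plus strand) and Lrp4 (chr2:91457511-91513779, plus strand) share a chromosome, as do Chrnb1 (chr11:69784036-69795943) and Chrne (chr11:70614883-70619216), both on the minus strand. Musk (chr4:58285960-58374303) is on the plus strand, and Ncam1 (chr9:49502136-49798925) and Runx1 (chr16:92601466-92826149) are on the minus strand. TPM of a gene sums over its exons. Exons of antisense genes overlap 4.81% of the exonic bases of Ncam1, 0.881% of Runx1 and 0.222% of Rapsn, and no exon of another gene overlaps the other 7 genes.

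The 250 bases before the transcription start are shown for the receptor subunit and kinase genes listed in the promoter reference used here (RefSeq, GRCm38.p6), because these genes differed from each other in how their levels varied between muscles and with melanoma. Capitals mark E-boxes (CANNTG), the motif that myogenic helix-loop-helix factors such as myogenin bind, and the N-box (CCGGAA, searched on either strand), which ETS factors bind in genes that are active at the synapse. The windows are chr2:73580339-73580588 (minus strand) for Chrna1, chr11:69795938-69796187 (minus strand) for Chrnb1, chr11:70619195-70619444 (minus strand) for Chrne, chr1:87205561-87205810 (plus strand) for Chrng and chr4:58285712-58285961 (plus strand) for Musk. RefSeq places the start of Chrng inside the GENCODE gene, so that its window lies within that gene's bounds.
Chrna1: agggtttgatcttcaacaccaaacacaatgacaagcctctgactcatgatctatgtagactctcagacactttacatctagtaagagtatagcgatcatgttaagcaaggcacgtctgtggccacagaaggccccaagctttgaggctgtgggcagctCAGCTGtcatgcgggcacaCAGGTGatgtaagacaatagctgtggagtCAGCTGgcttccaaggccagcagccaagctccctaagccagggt
Chrnb1: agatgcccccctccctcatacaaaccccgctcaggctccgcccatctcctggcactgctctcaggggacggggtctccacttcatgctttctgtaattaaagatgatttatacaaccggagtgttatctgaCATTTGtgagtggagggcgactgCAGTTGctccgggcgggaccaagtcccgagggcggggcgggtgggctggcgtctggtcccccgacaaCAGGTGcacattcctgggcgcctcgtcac
Chrne: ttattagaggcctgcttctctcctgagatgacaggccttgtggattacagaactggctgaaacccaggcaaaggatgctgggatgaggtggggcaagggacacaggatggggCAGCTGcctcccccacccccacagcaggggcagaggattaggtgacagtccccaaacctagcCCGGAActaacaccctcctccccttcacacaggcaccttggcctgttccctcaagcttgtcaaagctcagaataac
Chrng: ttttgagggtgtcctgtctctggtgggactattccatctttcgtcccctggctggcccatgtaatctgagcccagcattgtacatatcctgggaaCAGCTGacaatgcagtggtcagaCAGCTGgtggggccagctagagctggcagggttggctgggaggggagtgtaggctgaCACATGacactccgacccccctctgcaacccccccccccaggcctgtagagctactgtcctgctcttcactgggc
Musk: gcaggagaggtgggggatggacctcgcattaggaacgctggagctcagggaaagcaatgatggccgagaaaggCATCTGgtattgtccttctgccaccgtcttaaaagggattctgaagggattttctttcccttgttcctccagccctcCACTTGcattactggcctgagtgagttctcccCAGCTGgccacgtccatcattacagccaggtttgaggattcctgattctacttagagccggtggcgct

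Positions are counted from the start site, with -1 the last base before it, and give the first base of the motif. Chrna1 held 3 E-boxes, CAGCTG at -92, CAGGTG at -73 and CAGCTG at -44. Chrng also held 3, with CAGCTG at -155 and -132 and CACATG at -75. Musk held CATCTG at -177, CACTTG at -100 and CAGCTG at -68, and Chrnb1 held CATTTG at -119, CAGTTG at -96 and CAGGTG at -29. Chrne, the adult subunit gene, held a single E-box, CAGCTG at -138, and was the only 1 of these 5 with an N-box, at -76. Of 32851 mouse promoter windows of this length, 66.2% held at least 1 E-box and 12.2% held 3 or more, 1.26% held CAGCTG at 2 or more places, and 12% held an N-box. A match of letters is a description of the window and no evidence of binding.

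**Figure D1:**
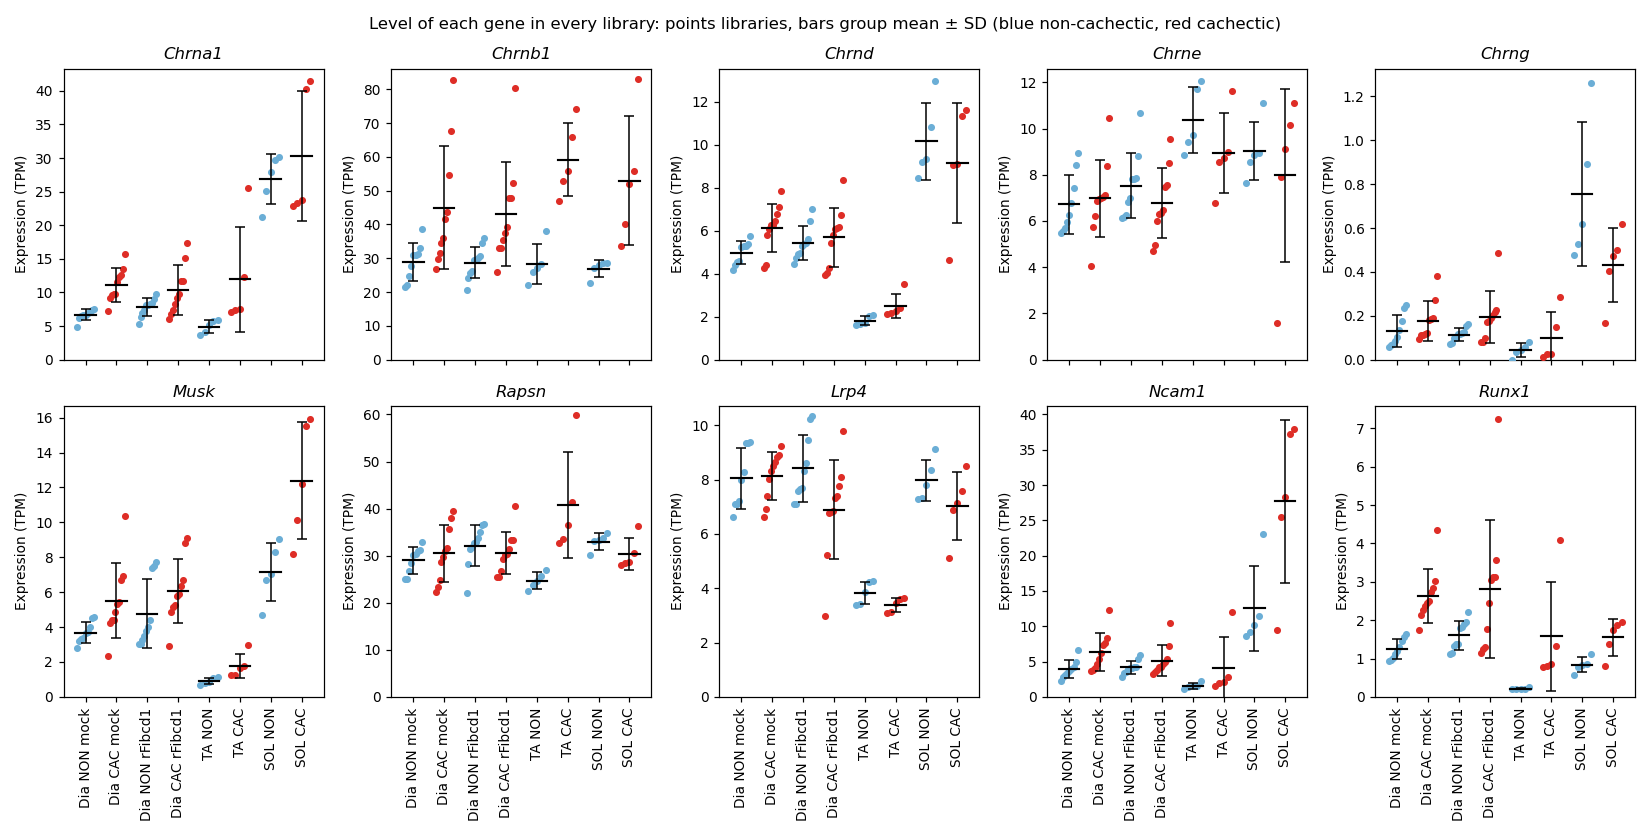
Expression of the 10 genes (TPM, linear axes from 0) in each of the 59 libraries by group; points are libraries, bars the mean with SD (cut off at 0), blue non-cachectic (NON), red cachectic (CAC). Soleus (SOL) holds the highest Chrna1, Chrnd, Chrng, Musk and Ncam1 levels, and cachectic TA library 8 stands above the other TA libraries for several genes.

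In mice with the non-cachectic melanoma, the junction genes differed strongly between muscles, and soleus was above both other muscles for 5 of them: Chrna1, Chrnd, Chrng, Musk and Ncam1. Chrna1, which encodes the subunit that binds acetylcholine, was 26.9 ± 3.75 TPM in soleus (SD, n = 5), 6.66 ± 0.81 in the mock diaphragm (n = 9) and 4.92 ± 0.984 in TA (n = 5). In soleus the 5 libraries read 25.2, 27.98, 29.8, 30.2 and 21.2 TPM, and in TA 5.19, 3.69, 5.79, 5.83 and 4.08 TPM. No soleus library came near the level of TA or of the diaphragm. The TA minus soleus difference of Chrna1 was -2.24 on the log2(TPM + 1) scale (SE 0.221, limma adjusted p = 1.18e-10), and the diaphragm minus soleus difference was -1.86 (SE 0.195, adjusted p = 1.19e-09). Diaphragm and TA, the neighbors in that order, differed by 0.38 (95% CI -0.01 to 0.78, adjusted p = 0.0771), which did not pass the test.

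Chrnd, the delta subunit gene, followed the order soleus, diaphragm, TA, with 10.2 ± 1.79, 4.96 ± 0.535 and 1.82 ± 0.22 TPM. All 3 steps passed the test, with differences of -1.97 for TA minus soleus (adjusted p = 2.5e-13), 1.08 for diaphragm minus TA (adjusted p = 1.09e-08) and -0.89 for diaphragm minus soleus (adjusted p = 1.78e-06). Chrnb1, the beta subunit gene, was nearly level across the muscles and the most abundant subunit transcript in TA and the diaphragm, at 28.3 ± 6.02 TPM in TA, 29.0 ± 5.61 in the diaphragm and 27.0 ± 2.45 in soleus. None of its 3 differences passed the test as deposited. After median-ratio scaling, however, Chrnb1 was higher in TA than in soleus (0.62, adjusted p = 0.0134) and lower in the diaphragm than in TA (-0.47, adjusted p = 0.0242), so that its order between muscles depends on the scaling.

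Chrne, the adult epsilon subunit gene, had another order. It was highest in TA (10.4 ± 1.44 TPM), followed by soleus (9.03 ± 1.27) and the diaphragm (6.73 ± 1.27). Of its 3 differences, that of diaphragm minus TA passed the test (-0.56, SE 0.212, adjusted p = 0.0174), and after median-ratio scaling Chrne was also higher in TA than in soleus (0.72, adjusted p = 0.0184). Chrng, the fetal gamma subunit gene, was low everywhere and passed the filter on low values (at least 1 TPM in as many libraries as the smallest group) in no fit. Its 5 non-cachectic soleus libraries read 0.477, 0.527, 0.617, 1.26 and 0.893 TPM, whereas TA read 0.0463, 0.0347, 0, 0.0815 and 0.0584 TPM. The groups did not overlap. With no filter, the TA minus soleus difference of Chrng was -0.73 (adjusted p = 1.86e-08) and the diaphragm minus soleus difference was -0.62 (adjusted p = 1.17e-07), in fits that called 44% and 25.4% of all genes.

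Among the genes that build and hold the receptor cluster, Musk had the steepest order, with 7.14 ± 1.67 TPM in soleus, 3.68 ± 0.587 in the diaphragm and 0.904 ± 0.186 in TA. The TA minus soleus difference of Musk was -2.08 (SE 0.205, adjusted p = 1.21e-10), and its diaphragm minus TA difference was 1.29 (adjusted p = 1.14e-07). Lrp4 was lower in TA (3.83 ± 0.415 TPM) than in soleus (7.97 ± 0.767) or the diaphragm (8.04 ± 1.11), by -0.89 against soleus (adjusted p = 3.19e-09), and the diaphragm and soleus did not differ beyond their spread (0.01, 95% CI -0.18 to 0.19). Rapsn, of about the abundance of Chrnb1, varied little, from 24.7 ± 1.77 TPM in TA to 29.0 ± 2.84 in the diaphragm and 33 ± 1.71 in soleus. The TA minus soleus difference of Rapsn was -0.41 (adjusted p = 0.00718) but turned to 0.16 after median-ratio scaling (adjusted p = 0.257). Its diaphragm minus TA difference turned from 0.22 (adjusted p = 0.0886) to -0.28 (adjusted p = 0.0169).

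Ncam1, whose product is a surface marker of denervated fibers and of satellite and Schwann cells, was 12.5 ± 6.01 TPM in soleus, 3.9 ± 1.27 in the diaphragm and 1.58 ± 0.416 in TA, with differences of -2.31 for TA minus soleus (adjusted p = 5.33e-07) and -1.42 for diaphragm minus soleus (adjusted p = 0.000333). Runx1, which is induced on denervation and is also expressed in blood cells, was highest in the diaphragm (1.24 ± 0.262 TPM), lower in soleus (0.834 ± 0.199) and lowest in TA (0.217 ± 0.0162). The summed white blood cell markers in these non-cachectic libraries were between 29.0 and 84.3 TPM in the diaphragm, between 15.9 and 22.7 TPM in soleus and between 4.14 and 7.61 TPM in TA, and their part in the Runx1 levels was not tested. The diaphragm minus TA difference of Runx1 was 0.87 (SE 0.164, adjusted p = 1.61e-05). Diaphragm and soleus differed by 0.29 (adjusted p = 0.163), which passed the test only after median-ratio scaling (0.32, adjusted p = 0.0372).

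In numbers, 7 of the 9 members tested were lower in TA than in soleus and none was higher (limma, no member higher at an unadjusted p under 0.05 either), in a comparison in which 69.5% of all genes were called and 63.9% were called lower. The members' median difference was -0.89 beside -0.47 for all genes. All 7 also did not overlap between the groups, as did 71.3% of all genes. Between diaphragm and TA, 5 members were higher and 1 lower, beside 72.5% of genes called, and 5 did not overlap, beside 61.7%. Between diaphragm and soleus, 4 members were lower and none higher, beside 38.8% called, 16.8% higher and 22.1% lower (24.5% and 22.5% with median-ratio scaling), and the 4 did not overlap, beside 28.8%. Median-ratio scaling moved the median TA minus soleus difference of all genes from -0.47 to -0.05, and the genes called from 5.63% higher and 63.9% lower to 25.7% higher and 27.4% lower. Of the members, 6 were then still lower in TA than in soleus (Chrna1, Chrnd, Musk, Lrp4, Ncam1 and Runx1) and 2 were higher (Chrnb1 and Chrne). For diaphragm minus TA the scaling moved the calls over all genes from 64% higher and 8.52% lower to 37.1% higher and 32.7% lower, and those over members to 4 higher (Chrnd, Musk, Lrp4 and Runx1) and 3 lower (Chrnb1, Chrne and Rapsn), with Ncam1 at 0.57 (adjusted p = 0.0593). The summed satellite cell markers were also lower in TA than in soleus, between 25.9 and 30.4 TPM against 56.6 and 78.3 TPM, as were the Schwann cell markers, between 38.6 and 62.8 against 98.9 and 174 TPM. Their part in the levels of Ncam1 and the other genes was not tested. In such bulk samples, fewer cells of a type and less RNA per cell cannot be told apart.

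**Figure D2:**
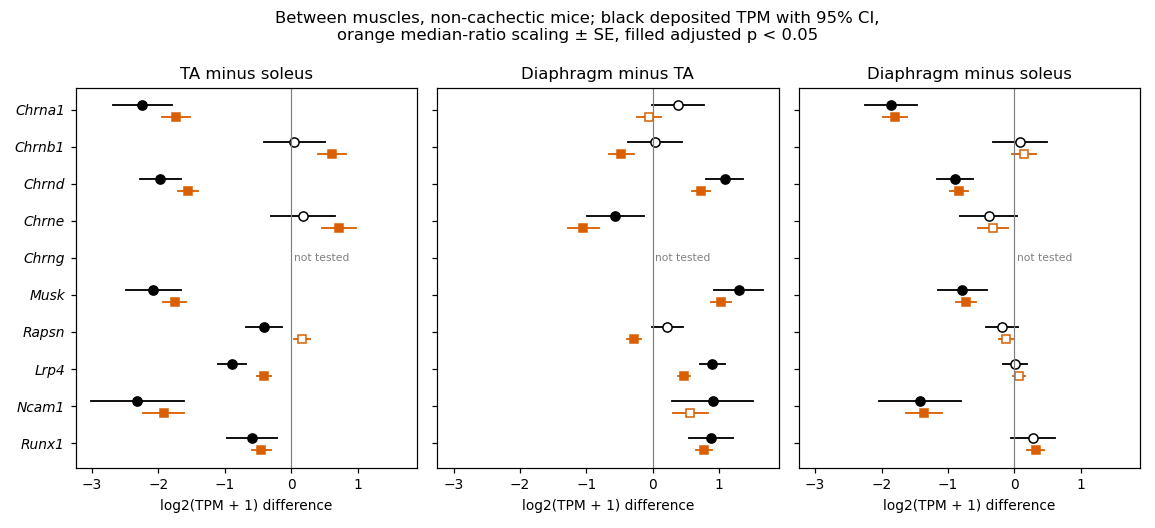
Differences between muscles in non-cachectic mice (log2(TPM + 1)) for each gene; black circles are the deposited TPM with the 95% CI, orange squares the same after median-ratio scaling with the SE, and filled symbols passed an adjusted p of 0.05. Chrna1, Chrnd, Musk and Ncam1 lie well below 0 for TA minus soleus under either scaling, whereas Chrnb1 and Chrne shift further to the right of 0 and Rapsn changes side.

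The balance between the fetal and adult subunit transcripts was read as the share of Chrng in the sum of Chrng and Chrne. Adult epsilon transcripts dominated in all 8 groups. The median share of Chrng was 5.87% in non-cachectic and 5.65% in cachectic soleus, 1.86% and 2.24% in the mock diaphragm, 1.46% and 2.39% in the rFibcd1 diaphragm and 0.473% and 0.303% in TA. Soleus libraries, from 4.25% to 12.5%, lay above all libraries of non-cachectic TA, which ran from 0% to 0.67%. With the cachectic melanoma the highest library of TA reached 4.08%, which was library 8, and the highest of the rFibcd1 diaphragm reached 7.17%, which was library 1. Cachectic and non-cachectic libraries overlapped in each muscle. Since Chrng was at most 1.26 TPM in any library, the number of reads behind these shares is unknown and may be small.

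**Figure D3:**
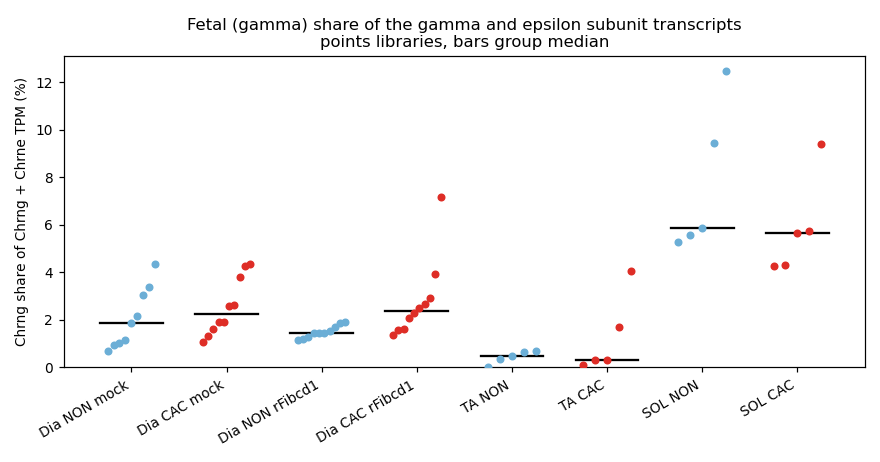
Share of Chrng in the summed TPM of Chrng and Chrne (%) in each library by group; points are libraries, bars the group median, blue non-cachectic (NON), red cachectic (CAC). The medians of soleus (SOL), 5.87% and 5.65%, are the highest and those of TA, 0.473% and 0.303%, the lowest, and the cachectic and non-cachectic points overlap in each muscle.

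In the mock diaphragm, the cachectic melanoma was accompanied by more Chrna1, Chrnb1, Ncam1 and Runx1, whereas the differences of Chrne (0.03, 95% CI -0.21 to 0.28), Rapsn (0.05, 95% CI -0.15 to 0.25) and Lrp4 (0.02, 95% CI -0.21 to 0.25) did not pass the test. Chrna1 ranged from 4.82 to 7.49 TPM around a median of 6.7 in the 9 non-cachectic libraries, and from 7.22 to 15.7 around a median of 10.7 in the 10 cachectic ones. The lowest cachectic library alone overlapped the non-cachectic range. The difference was 0.64 (SE 0.138, limma adjusted p = 0.000788). Runx1 ranged from 0.938 to 1.64 TPM (median 1.2) in non-cachectic and from 1.75 to 4.35 TPM (median 2.47) in cachectic libraries, and was the only member whose groups did not overlap. Its difference was 0.69 (SE 0.161, adjusted p = 0.00163).

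Chrnb1 rose from a median of 30.9 TPM (21.4 to 38.8) to 38.8 TPM (26.8 to 82.8), by 0.55 (SE 0.174, adjusted p = 0.0153). Its cachectic libraries spread widely, with an SD of 18.2 TPM against 5.61 TPM. Ncam1 rose from a median of 3.67 TPM (2.31 to 6.59) to 5.81 TPM (3.62 to 12.4), by 0.54 (SE 0.177, adjusted p = 0.0177). Both passed the test with overlapping groups. Musk (0.42, 95% CI 0.06 to 0.78, adjusted p = 0.0656) and Chrnd (0.25, 95% CI 0.04 to 0.45, adjusted p = 0.0584) did not pass it. Leaving out cachectic library 22 brought Musk past the threshold (0.52, adjusted p = 0.016), as leaving out cachectic library 20 or 34 did for Chrnd (0.29 each, adjusted p = 0.0266 and 0.0295). Chrng averaged 0.133 ± 0.0733 TPM in non-cachectic and 0.176 ± 0.0903 in cachectic libraries and was not tested.

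Thus 4 of 9 members tested were called higher and none lower (limma, none lower at an unadjusted p under 0.05), beside 33.5% of all genes called, 30.9% higher and 2.67% lower, so that the share of members is near that of all genes. The median difference was 0.42 over the members and 0.2 over all genes. The single non-overlapping member stood beside 4.36% of all genes. After median-ratio scaling, which took the median of all genes to 0.01 and the calls over all genes to 7.44% higher and 8.83% lower, Chrna1 (0.43, adjusted p = 0.0189) and Runx1 (0.55, adjusted p = 0.0039) were still called, whereas Chrnb1 (0.32, adjusted p = 0.216) and Ncam1 (0.35, adjusted p = 0.234) were not. The diaphragm libraries also fell into 2 states by the level of the pseudogene Pcna-ps2, with 9 of 10 cachectic but 3 of 9 non-cachectic mock libraries in the high state. With the state as a term, Chrna1 (0.53, adjusted p = 0.0135), Ncam1 (0.66, adjusted p = 0.0182) and Runx1 (0.48, adjusted p = 0.0386) passed the test and Chrnb1 did not, beside 2059 of 13426 genes. Among high-state libraries alone, only Ncam1 did (0.81, adjusted p = 0.0397), beside 805 of 14159 genes, while Chrna1 (0.54, adjusted p = 0.114) and Runx1 (0.72, adjusted p = 0.0563) kept their direction in 9 against 3 libraries. The summed white blood cell markers were between 29.0 and 84.3 TPM in non-cachectic and between 48.2 and 262 TPM in cachectic mock diaphragm, and the satellite cell markers between 44.0 and 59.5 and between 48.8 and 117 TPM. Their part in the rise of Runx1 and Ncam1 was not tested.

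In the diaphragm of mice that received rFibcd1, the melanoma difference passed the test for Chrnb1 alone. Chrnb1 was 28.7 ± 4.66 TPM in the non-cachectic and 43.2 ± 15.4 TPM in the cachectic group, a difference of 0.53 (SE 0.169, adjusted p = 0.0434). This was 1 of 9 members, beside 9.11% of all genes, 7.14% higher and 1.97% lower (after median-ratio scaling 4.25% higher and 5.22% lower). The call was lost after median-ratio scaling (0.45, adjusted p = 0.0923) and in 13 of 20 fits that left out a library, those without cachectic libraries 1, 3, 4, 5 or 11 or non-cachectic libraries 46, 49, 50, 56, 57, 58, 59 or 60, with adjusted p from 0.0517 to 0.106. Array weights did not call it either, beside 1009 of 13426 genes. Without cachectic library 4, the highest at 80.4 TPM, the difference was 0.42. Runx1 ranged from 1.12 to 2.22 TPM and from 1.14 to 7.24 TPM (0.44, adjusted p = 0.0687), which passed without cachectic library 11, 14, 16 or 18 or non-cachectic library 56 (0.47 to 0.52, adjusted p from 0.0282 to 0.0483). Chrna1 averaged 7.8 ± 1.31 and 10.4 ± 3.66 TPM (0.32, adjusted p = 0.125). Lrp4 averaged 8.41 ± 1.22 and 6.9 ± 1.81 TPM (-0.28, adjusted p = 0.0921) and was called lower after median-ratio scaling (-0.36, adjusted p = 0.0232). Without cachectic library 18, Chrna1 (0.39, adjusted p = 0.0427) and Lrp4 (-0.34, adjusted p = 0.0317) also passed the test. White blood cell marker sums ranged from 35.1 to 374 TPM in the non-cachectic and from 48.2 to 590.2 TPM in the cachectic rFibcd1 groups, and their part in these values was not tested. No member's groups were separate, as was so for all but 0.0521% of genes.

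Treatment with rFibcd1 itself was not accompanied by a called change of any member. In the cachectic diaphragm 0 of 9 members were called by limma, beside 0.0447% of all genes. Lrp4 alone had an unadjusted p under 0.05, with 8.14 ± 0.884 TPM under mock treatment and 6.9 ± 1.81 TPM with rFibcd1 (-0.25, 95% CI -0.47 to -0.03, adjusted p = 0.429). Chrna1 differed by -0.13 (95% CI -0.40 to 0.15) and Runx1 by -0.03 (95% CI -0.35 to 0.28). In the non-cachectic diaphragm 0 of 9 members were called, beside 0.417% of genes, and none had an unadjusted p under 0.05. The largest differences there were those of Musk (0.24, 95% CI -0.12 to 0.60) and Runx1 (0.21, 95% CI -0.11 to 0.54). Of the non-cachectic diaphragm libraries, 3 of 9 mock and 6 of 10 rFibcd1 ones were in the high Pcna-ps2 state. With the state as a term 0 members were called for this comparison, beside 36 of 13426 genes. Array weights called only Rapsn (0.18), in the non-cachectic diaphragm, where they called 5358 of 13426 genes. These comparisons and the melanoma ones use the same libraries. The interaction, the melanoma difference with rFibcd1 minus that with mock treatment, was called for 0 of 9 members, beside 0.0223% of genes, with no unadjusted p under 0.05. It was below 0 for all 9, from -0.35 for Ncam1 (95% CI -0.85 to 0.15) to -0.02 for Chrnb1 (95% CI -0.51 to 0.47), while the median of all genes was -0.11. After median-ratio scaling it was above 0 for 3 members. Differences of these sizes could not be told from 0 with the spread of these groups.

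In TA, a fast muscle, 4 members were higher with the cachectic melanoma, Chrna1, Chrnb1, Musk and Rapsn. Chrnb1 read 46.9, 65.9, 74.2, 55.9 and 52.8 TPM in the cachectic libraries and 22.0, 25.8, 38.2, 28.3 and 27.1 TPM in the non-cachectic ones. The groups were well apart. The difference was 1.04 (SE 0.16, limma adjusted p = 0.000804). Rapsn read 32.8, 36.4, 60.0, 41.3 and 33.5 against 24.6, 22.4, 25.7, 23.7 and 27.0 TPM, a difference of 0.67 (SE 0.155, adjusted p = 0.00573). Chrna1 read 7.04, 7.49, 25.5, 7.45 and 12.3 against 5.19, 3.69, 5.79, 5.83 and 4.08 TPM. All cachectic libraries were above all non-cachectic ones, and library 8 stood far above the next, at 25.5 against 12.3 TPM. The Chrna1 difference was 0.98 (SE 0.293, adjusted p = 0.0159) and was 0.68 (adjusted p = 0.00506) without that library.

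Musk read 1.25, 1.26, 2.98, 1.63 and 1.74 TPM against 0.778, 1.07, 0.858, 0.693 and 1.12 TPM, a difference of 0.51 (SE 0.156, adjusted p = 0.0167) that was 0.38 (adjusted p = 0.00713) without library 8. Musk passed the filter on low values mainly through its cachectic libraries, all of which were above 1 TPM. Runx1 did not pass the filter. It read 0.857, 0.781, 4.1, 0.81 and 1.33 TPM in cachectic and 0.208, 0.212, 0.245, 0.205 and 0.214 TPM in non-cachectic TA, with no overlap. The exact two-sided permutation test of Runx1 gave p = 0.00794, the smallest that 5 against 5 libraries allow, and with no filter its difference was 0.95 (adjusted p = 0.0218), with 34.1% of all genes called. Chrnd (0.30, 95% CI 0.03 to 0.57, adjusted p = 0.0512) did not pass, although its groups did not overlap, and it passed without cachectic library 6 (0.33, adjusted p = 0.0455) or 8 (0.21, adjusted p = 0.032). Ncam1 read 1.9, 1.51, 12.03, 2.11 and 2.85 against 1.6, 1.6, 1.1, 1.37 and 2.23 TPM, and its difference of 0.68 (adjusted p = 0.122) was 0.26 without library 8. Chrne (-0.20, adjusted p = 0.221) and Lrp4 (-0.14, adjusted p = 0.261) were not called. Chrng averaged 0.101 against 0.0442 TPM, but its medians were 0.0265 and 0.0463 TPM, and library 8 was highest at 0.288 TPM.

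The 4 of 8 members called higher in TA, with none lower (none at an unadjusted p under 0.05 either), stood beside 60.2% of all genes called, 56.4% higher and 3.78% lower. Of the 8, 5 did not overlap between the groups (the 4 and Chrnd), beside 51.7% of all genes. The median of the members was 0.59 and that of all genes 0.41. With the median of all genes centered by median-ratio scaling, 19.8% of genes were called higher and 20.9% lower. Chrnb1 (0.57, adjusted p = 0.0123) and Rapsn (0.20, adjusted p = 0.0381) were then called higher, Chrne (-0.63, adjusted p = 0.0289) and Lrp4 (-0.51, adjusted p = 0.00205) were called lower, and Chrna1 (0.55, adjusted p = 0.06) and Musk (0.24, adjusted p = 0.0547) were not called. Without library 8 these scaled values were 0.63 for Chrnb1, 0.19 for Rapsn, -0.43 for Chrne and -0.42 for Lrp4, all still called. Library 8 also had the highest satellite cell marker sum (131 TPM, the other cachectic libraries at most 48.0) and white blood cell marker sum (80.0 TPM, the others at most 28.02). In all 5 cachectic libraries these sums lay above the non-cachectic ranges of 25.9 to 30.4 and 4.14 to 7.61 TPM. The Schwann cell marker sum was between 56.8 and 93.5 TPM in cachectic and between 38.6 and 62.8 TPM in non-cachectic TA, with 5 of 9 tested markers called higher and 1 lower. Of the 8 muscle fiber markers 2 were higher and 3 lower, one of these being the actin gene Acta1, named after its values were seen, at 19700 TPM in cachectic and 34080 TPM in non-cachectic TA (-0.87, adjusted p = 0.0105). Their part in the rise of the members was not tested. All cachectic TA and soleus libraries (5 each) were in the high and all non-cachectic ones (5 each) in the low Pcna-ps2 state, so that the state and the tumor cannot be told apart there. In the level comparisons between muscles, the non-cachectic mock diaphragm held both states, whereas TA and soleus held the low one only.

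In soleus, a slow muscle, Chrnb1, Musk and Runx1 were higher with the cachectic melanoma, whereas Chrna1, already abundant there, was not. Chrnb1 read 40.2, 52.0, 83.0, 55.9 and 33.7 TPM in cachectic and 22.7, 27.9, 28.6, 27.0 and 28.6 TPM in non-cachectic libraries, and these did not overlap. The difference was 0.89 (SE 0.196, limma adjusted p = 0.00773). Musk read 8.19, 10.2, 15.9, 15.5 and 12.2 TPM against 4.67, 8.28, 6.67, 7.07 and 9.02 TPM, with an overlap of the lowest cachectic library alone. Its difference was 0.71 (SE 0.194, adjusted p = 0.0211). Runx1 read 0.796, 1.38, 1.74, 1.88 and 1.95 TPM against 0.826, 0.867, 0.576, 0.775 and 1.13 TPM, again with the cachectic library 6 as the exception. Its difference was 0.46 (SE 0.145, adjusted p = 0.0383). Runx1 passed the filter on low values through 4 cachectic libraries and 1 non-cachectic one at or above 1 TPM, and with no filter it was not called (0.46, adjusted p = 0.0579).

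That call of Runx1 was not stable. In 8 of 10 fits that left out a library, those without cachectic libraries 7, 8, 9 or 10 or non-cachectic libraries 61, 62, 63 or 64, the adjusted p ran from 0.0556 to 0.0951, with differences from 0.40 to 0.48. Ncam1 showed the opposite. It read 25.4, 9.44, 38.0, 37.2 and 28.3 TPM in cachectic and 10.2, 11.4, 8.64, 9.25 and 23.1 TPM in non-cachectic soleus, a difference of 1.04 that missed the threshold (95% CI 0.26 to 1.81, adjusted p = 0.0522). Without cachectic library 7, the one with fast myosin, the Ncam1 difference was 1.37 (adjusted p = 0.0053), and without non-cachectic library 65 it was 1.27 (adjusted p = 0.0236). Library 7 was also lowest for Chrnd (4.63 TPM, the other cachectic libraries at least 9.06) and Chrne (1.6 TPM, the others at least 7.89). Without it the Chrne difference went from -0.33 to 0.08 and that of Chrnd from -0.18 to 0.02, neither called.

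In soleus, 3 of 9 members were thus higher and none lower (none at an unadjusted p under 0.05), beside 25.1% of all genes called, 17.5% higher and 7.54% lower. Only Chrnb1 had separate groups, beside 20% of all genes. The median was 0.13 over the members and 0.09 over all genes. After median-ratio scaling 14.4% of genes were called higher and 13.9% lower, and Chrnb1 (0.78, adjusted p = 0.0086), Musk (0.61, adjusted p = 0.0181) and Runx1 (0.39, adjusted p = 0.0341) were called. Chrna1 (0.13, 95% CI -0.28 to 0.54), Rapsn (-0.12, 95% CI -0.31 to 0.07) and Lrp4 (-0.17, 95% CI -0.43 to 0.09) did not pass the test. Chrng averaged 0.432 ± 0.168 TPM in cachectic and 0.755 ± 0.326 TPM in non-cachectic soleus, and its exact permutation p of 0.0714 did not pass. The Schwann cell marker sum reached 380 TPM in cachectic library 7 and 417 TPM in cachectic library 8, whereas the other 8 soleus libraries lay between 96.4 and 174 TPM. White blood cell marker sums were between 15.9 and 22.7 TPM in non-cachectic and between 20.4 and 109 TPM in cachectic soleus. Their part in the Ncam1 and Runx1 values was not tested.

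**Figure D4:**
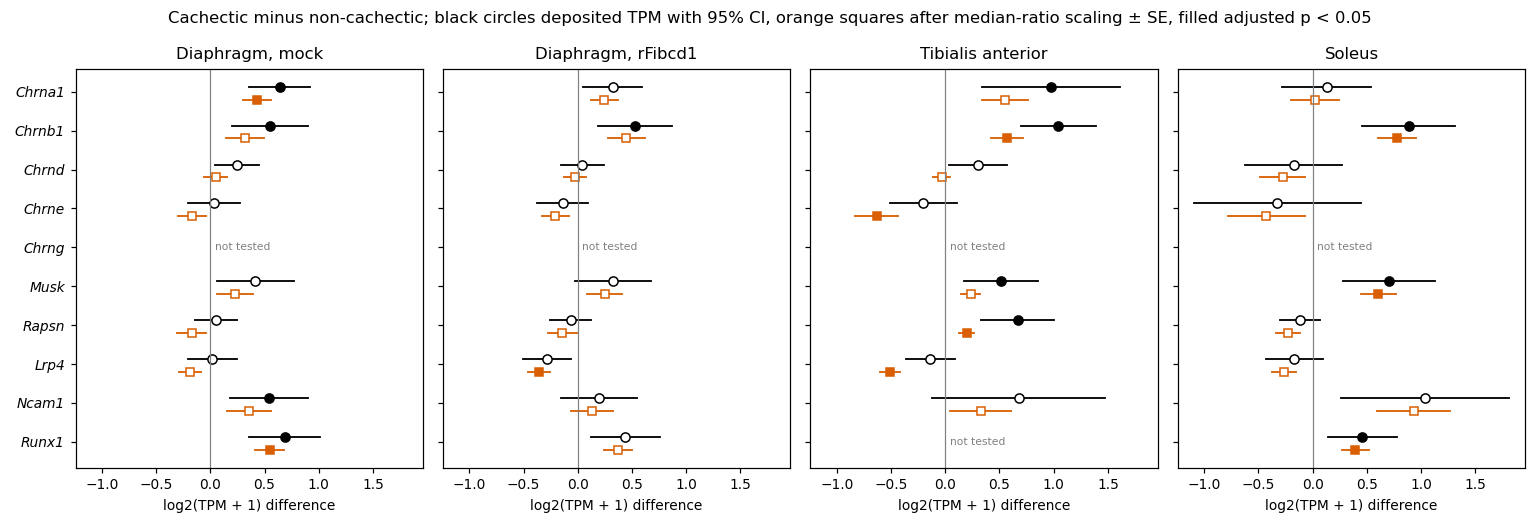
Cachectic minus non-cachectic difference (log2(TPM + 1)) of each gene in the mock and rFibcd1 diaphragm, TA and soleus; black circles are the deposited TPM with the 95% CI, orange squares the same after median-ratio scaling with the SE, and filled symbols passed an adjusted p of 0.05. Chrnb1 lies above 0 in all 4 panels, from 0.53 to 1.04, and the orange squares lie to the left of the black circles, most of all in TA.

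The melanoma difference itself was then compared between muscles, among the 39 libraries without rFibcd1. It was larger in TA than in soleus for Rapsn, by 0.79 (SE 0.188, limma adjusted p = 0.0043), and for Chrna1, by 0.85 (SE 0.312, adjusted p = 0.0494). These were 2 of 9 members, beside 20.4% of genes called. Rapsn stayed called in all 20 fits that left out a library. Chrna1 lost the call in 13 of 20, those without TA libraries 8, 10, 61, 62, 63 or 65 or soleus libraries 7, 8, 9, 61, 62, 63 or 64, with an adjusted p of up to 0.145, which was reached without TA library 8 (difference 0.55). Without both TA library 8 and soleus library 7, Chrna1 was not called (0.46, adjusted p = 0.251), whereas Rapsn (0.62, adjusted p = 0.0182) and Ncam1 (-1.11, adjusted p = 0.047) were, beside 1410 of 13656 genes. With the column number as a replicate block, 3 members were called, Rapsn (0.79, adjusted p = 0.00031), Chrna1 (0.85, adjusted p = 0.0139) and Chrnd (0.48, adjusted p = 0.0408), beside 5569 of 13501 genes. Between diaphragm and TA the melanoma difference of Rapsn was smaller in the diaphragm, by -0.62 (SE 0.164, adjusted p = 0.0235), as the only 1 of 9 members, beside 5.04% of genes. It lost the call without TA library 8 (-0.47, adjusted p = 0.0783) or TA library 62 (-0.58, adjusted p = 0.0519). Under the replicate block it was -0.51 (adjusted p = 0.0165), still the only member called, beside 2317 of 13501 genes. Between diaphragm and soleus 0 of 9 members were called by limma, beside 2.52% of genes, and 1 (Chrnd, 0.42) had an unadjusted p under 0.05. The block gave 0 members there too, beside 994 of 13501 genes. After median-ratio scaling, which moved the calls over all genes from 19.1% higher and 1.26% lower to 4.13% and 6.33% for TA minus soleus, from 0.711% and 4.33% to 2.9% and 2.17% for diaphragm minus TA and from 1.95% and 0.57% to 1.34% and 2.18% for diaphragm minus soleus, no member differed between muscles in any of the 3 comparisons by the adjusted p, and the Rapsn values were 0.41 for TA minus soleus (adjusted p = 0.111) and -0.37 for diaphragm minus TA (adjusted p = 0.138). The comparisons share libraries and are not independent of each other.

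For Chrnb1, which was called in each of the 3 muscles, the muscles could not be told apart: the melanoma difference was 0.16 larger in TA than in soleus (95% CI -0.50 to 0.81) and 0.50 smaller in the diaphragm than in TA (-0.50, 95% CI -1.07 to 0.08). For Musk, called in the limb muscles but not in the diaphragm, the difference between diaphragm and TA was -0.10 (95% CI -0.61 to 0.42) and that between diaphragm and soleus -0.29 (95% CI -0.80 to 0.22). For Runx1 the 3 differences ran from -0.26 to 0.49, and none was called.

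The wider set of 36 other junction genes, chosen for a known part in the junction, from synaptic and basal lamina proteins to glycosylation enzymes and transcription factors, did not move together. In the mock diaphragm 7 of 34 tested were called higher and 1 lower with the cachectic melanoma, with a median of 0.1, beside 30.9% of all genes higher and 2.67% lower with a median of 0.2. After median-ratio scaling 3 of the list were higher and 5 lower, with a median of -0.13, beside 7.44% and 8.83% of all genes with a median of 0.01. Before scaling Dtna, which encodes dystrobrevin of the dystrophin complex, rose by 0.72 (adjusted p = 5.02e-05), and Lama5, a laminin of the basal lamina, by 0.52 (adjusted p = 0.000254). Colq, the collagen tail that anchors acetylcholinesterase, fell by 0.46 (adjusted p = 0.0389). In TA 16 of 33 were higher and 1 lower, beside 56.4% and 3.78% of all genes. Among those of the list that rose were Sntb1 (1.55, adjusted p = 0.000239), Lama5 (1.14) and Agrn, the gene of agrin (0.85, adjusted p = 0.00233). The median of the list in TA was 0.34, below the 0.41 of all genes, and after median-ratio scaling 4 were higher and 9 lower, beside 19.8% and 20.9% of all genes. In soleus 6 were higher and 5 lower of 34, beside 17.5% and 7.54% of all genes, and after median-ratio scaling 5 and 6, beside 14.4% and 13.9%. Called genes of the list included the Musk adaptor Dok7 (0.53, adjusted p = 0.0166), which rose, and Erbb3 (-0.75, adjusted p = 0.000983) and Nid2 (-0.82, adjusted p = 0.0047), which fell.

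Of 20 genes known to respond to denervation, most of which rise in denervated muscle, 8 of 20 tested were higher in the mock diaphragm, 7 of 16 in TA, and 6 of 18 in soleus, where 2 were lower. The list holds the co-repressor genes Hdac9 and Dach2, which are known to fall on denervation. Dach2, named after its value was seen, was 1 of the 2 lower in soleus (-0.72, adjusted p = 0.0032). The other is not reported here. No gene of the list was called lower in the mock diaphragm or in TA before scaling. The shares of all genes called higher were 30.9%, 56.4% and 17.5%. After median-ratio scaling 4 of the list were higher and 2 lower in the mock diaphragm, 3 and 1 in TA, and 6 and 3 in soleus, beside 7.44% and 8.83%, 19.8% and 20.9%, and 14.4% and 13.9% of all genes. Before scaling their medians were 0.49, 0.39 and 0.17, beside 0.2, 0.41 and 0.09 for all genes. Cdkn1a, a cell cycle inhibitor, was called in each, with 1.26 (adjusted p = 0.00147), 1.83 (adjusted p = 0.0121) and 1.55 (adjusted p = 0.000547). Gadd45a, a stress response gene, rose by 1.00 in the diaphragm (adjusted p = 0.00459) and 1.38 in TA (adjusted p = 0.0006). In the diaphragm Fgfbp1, a growth factor binding protein gene, rose by 1.28 (adjusted p = 0.00022), and in soleus the TWEAK receptor gene Tnfrsf12a rose by 2.14 (adjusted p = 4.74e-05). Myh8, the perinatal myosin, rose by 2.77 in TA (adjusted p = 0.029) and 2.90 in soleus (adjusted p = 0.000589), and Sln, which encodes the calcium pump inhibitor sarcolipin, by 2.43 (adjusted p = 8.4e-06) and 1.60 (adjusted p = 0.00168). These genes are known to respond to other stresses too. Of 11 nicotinic receptor genes of other types, 1 was tested in the diaphragm and in soleus and none in TA. That gene, Chrna2, fell in soleus from 5.46 to 1.15 TPM, by 1.64 (adjusted p = 0.000676), with separate groups, and its difference in the mock diaphragm was -0.27 and not called.

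**Figure D5:**
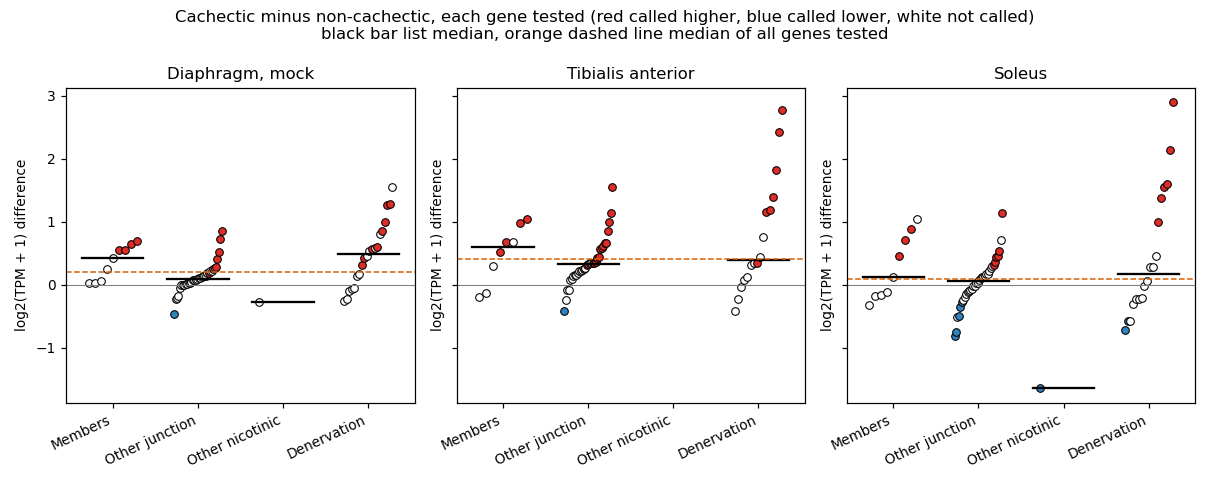
Cachectic minus non-cachectic difference (log2(TPM + 1)) of each tested gene of the 10 members, the other junction genes, the other nicotinic receptor genes and the denervation genes in 3 muscles; red called higher, blue called lower, white not called, black bars the list median, dashed orange line the median of all genes (0.2, 0.41 and 0.09). In TA the median of the denervation genes (0.39) and that of the junction genes (0.34) lie just below the line of all genes (0.41), and in both lists single genes exceed 1.

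The members did not vary as 1 unit among libraries. Within groups, that is after subtracting each group mean from the median-ratio scaled log2(TPM + 1) values of the 59 libraries, the closest pairs of members were Chrnd with Chrne (Pearson r = 0.56) and Chrna1 with Chrnd (r = 0.53), and the most opposed were Lrp4 with Runx1 (r = -0.45). Among 12243 genes, those most like Chrne were Ufsp1 (r = 0.70), Ache, the gene of acetylcholinesterase (r = 0.69), and Hars2 (r = 0.67). Ufsp1 and Ache are neighbors on chromosome 5, with 162 bases between them. The gene most like Ncam1 was Ttc12 (r = 0.76), which starts 15910 bases from it on the same strand. Chrnb1 was closest to Cacnb1, the beta subunit gene of the muscle calcium channel (r = 0.73), and Dysf, the gene of the membrane repair protein dysferlin (r = 0.70). Chrna1 was closest to Sf3b2 (r = 0.59), Chrnd to Uba1 (r = 0.55) and the ETS factor gene Etv5 (r = 0.55), Musk to Ikzf5 (r = 0.68), Rapsn to Mrps23 (r = 0.86), Lrp4 to the calcium sensor gene Stim1 (r = 0.78) and Runx1 to the heme oxygenase gene Hmox1 (r = 0.75). For Chrng, near the lower limit of the table, the closest was 9530068E07Rik (r = 0.48). These values describe the libraries, which share processing and composition, and carry no test.

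The cell type markers bear on what the libraries held beside fibers. The 8 muscle fiber markers summed to between 31390 and 73950 TPM in the diaphragm, 37970 and 71960 TPM in TA and 48680 and 80970 TPM in soleus. The 8 motor neuron markers, Chat among them, summed to at most 1.72 TPM in any diaphragm and 0.172 TPM in any limb muscle library, and none averaged 1 TPM in any group. Schwann cell markers were present in all, with 8 to 11 of 12 averaging at least 1 TPM in each group. Mesothelial markers summed to between 51.9 and 283 TPM in the diaphragm and at most 5.58 TPM in the limb muscles. Melanocyte markers summed to at most 2.4 TPM.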

How the data were processed

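The deposited table held TPM values for 47643 gene symbols in 59 libraries, made by the authors, who aligned reads to the mouse genome (mm10 per the labels, GRCm38) with CLC Genomics Workbench. Each column summed to 1e+06, and depth is unknown. The labels and the study's methods name different library kits and instruments, and whether counting used strand is not given in the sources used here. All columns were used (0 left out). Library groups came from column names that match the labels' groups.

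From the deposited TPM values, log2(TPM + 1) was compared with limma 3.58.1 in R 4.3.3 (a linear model per gene, then moderated variances with a mean-variance trend). Fold changes on this scale understate the change of low genes. Genes needed at least 1 TPM in as many libraries as the smallest group. Tests were two-sided, Benjamini-Hochberg adjusted over all genes of the fit, and called at an adjusted p under 0.05. The 39 diaphragm libraries, the 10 TA libraries, the 10 soleus libraries and the 39 libraries without rFibcd1 were fitted apart, for 13 comparisons. In place of the Kruskal-Wallis and Dunn tests of the study, limma gave sizes with errors, and the Dunn test was an alternative. P-values measure the spread between these libraries. Other alternatives were a pseudocount of 0.1, no filter, median-ratio scaling, array weights, the library state (Pcna-ps2 above 2 TPM), and each library left out. The fits were checked on simulated data drawn independently for each gene. These data held no library-wide shifts or outlying libraries, so the check does not bear on those.

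All 10 members were followed in the 8 groups. For some comparisons the values of only some members are given. Of other lists, up to 4 called genes with the largest differences and a mean of at least 1 TPM are named. Some of these are not reported here. Likeness used genes with at least 1 TPM in at least 30 libraries. The members and lists were chosen with earlier results of these data known. Promoters came from RefSeq, gene coordinates from GENCODE M21. Of the 10 members 6 had a promoter entry and Chrnd, Rapsn, Lrp4 and Ncam1 had none. Libraries of the same column number deviated together, with a correlation over 0.1, in all 10 TA and soleus pairs, all 10 diaphragm and TA pairs and 8 of 10 diaphragm and soleus pairs (lowest -0.0187). The column numbers are not the labels' replicate numbers, and what they mark is not given in the sources used here. The fit without a block was kept, and values with the block stand beside the results it moved.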

Additional observations from a re-analysis of the deposited data

Results flagged for a closer look

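Of 80 sets of values (each gene in each group), 15 held a library far from the rest by Dixon's test at the 95% level. Chance gives about 1 of 20 sets for independent, normally distributed values. TPM values need not be normal and the sets share libraries, so that the 15 cannot be judged against that rate. Cachectic TA library 8 stood far above the rest for 5 genes, with Chrna1 at 25.47 TPM, Chrnd at 3.505, Musk at 2.981, Ncam1 at 12.03 and Runx1 at 4.095 TPM. In the non-cachectic TA, Runx1 of library 63 was highest at 0.245 TPM. In the rFibcd1-treated cachectic diaphragm, library 1 was highest for Chrng at 0.4884 and Runx1 at 7.235 TPM, library 4 for Chrnb1 at 80.44 TPM and library 11 for Rapsn at 40.51 TPM. In the mock-treated cachectic diaphragm, library 8 was highest for Ncam1 at 12.37 TPM and library 20 for Runx1 at 4.345 TPM. In the mock-treated non-cachectic diaphragm, Chrna1 of library 64 was lowest at 4.816 TPM. In the non-cachectic soleus, Chrnb1 of library 61 was lowest at 22.74 TPM and Ncam1 of library 65 was highest at 23.1 TPM.

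The melanoma difference differed between muscles for Chrna1 (TA minus soleus 0.8491 on the log2(TPM + 1) scale) and for Rapsn (TA minus soleus 0.7894, diaphragm minus TA -0.6174), by the limma test of the difference itself, as described above.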

How the results depend on the processing

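Depth is unknown, TPM depends on composition, and each melanoma condition is 1 tumor stock, which limits every comparison. Counts below are of members called. In the rFibcd1 diaphragm, with 1223 of 13426 genes called, the count went from 1 to 0 with no filter on low values (966 of 23683 genes called), array weights (1009 of 13426), the library state as a term (1353 of 13426) or only the groups compared (335 of 12829). It was also 0 with only high-state libraries or the Dunn test, which called 0 genes of all and so say nothing of the members. The Dunn test called 0 and 14 of 13426 genes for rFibcd1 in the cachectic and non-cachectic diaphragm. In the mock diaphragm the count went from 4 (4501 of 13426 genes called) to 2 after median-ratio scaling (2184 of 13426) and to 1 among high-state libraries (805 of 14159). It was 3 with the state as a term (2059 of 13426). It rose to 6, adding Chrnd and Musk, with array weights (7341 of 13426) and with only the groups compared (6298 of 12571). The rFibcd1 difference in the non-cachectic diaphragm went from 0 to 1 with array weights, while the calls over all 13426 genes went from 56 to 5358. For the melanoma difference between diaphragm and TA it went from 1 to 2 with a pseudocount of 0.1, to 0 after median-ratio scaling and to 0 without TA library 8 and soleus library 7, and for TA against soleus from 2 to 1 with no filter and to 0 after median-ratio scaling. The level difference between diaphragm and soleus went from 4 to 7 with array weights, and the calls over all 13501 genes from 5243 to 8110. The causes were not tested.

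Median-ratio scaling reversed Rapsn in TA against soleus (0.16), and Chrnb1 (-0.47) and Rapsn (-0.28) in diaphragm against TA. It moved the mean TPM in non-cachectic TA to 7.55 for Chrna1, 43.4 for Chrnb1, 2.79 for Chrnd, 15.9 for Chrne, 1.38 for Musk, 37.7 for Rapsn, 5.85 for Lrp4, 2.40 for Ncam1 and 0.332 for Runx1, and to 3.73 for Lrp4 in cachectic TA. The log2 ratio of Chrng to Chrne, taken with a pseudocount of 0.1, became smaller in size with a pseudocount of 1, at -2.69 and -2.74 in the rFibcd1 and mock cachectic diaphragm, -2.92 and -2.76 in the rFibcd1 and mock non-cachectic diaphragm, -3.16 and -3.44 in cachectic and non-cachectic TA and -2.48 and -2.52 in cachectic and non-cachectic soleus.

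With each library left out, the count ran from 4 to 5 in the mock diaphragm (all genes 3625 to 5245), 0 to 4 in the rFibcd1 diaphragm (733 to 1896), 4 to 5 in TA (5097 to 7471), 2 to 4 in soleus (2131 to 3844), 1 to 2 for TA against soleus (1617 to 3981) and 0 to 1 for diaphragm against TA (323 to 1598), and did not move in the other 7 comparisons. Over all the alternatives together, not only the fits with a library left out, a member called under neither setting changed sign in 120 cases.

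No paired analysis was possible within a muscle because the groups share no column number and the columns do not carry the labels' replicate numbers. Across muscles, column number as a replicate block (limma, consensus correlation 0.381, chosen after seeing the data, as was leaving out the libraries that stand apart) gave 3 members for TA against soleus, adding Chrnd at 0.48, 1 for diaphragm against TA and 0 for diaphragm against soleus, and 7, 6 and 4 for the level differences.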
